A study of Mus musculus with 7 samples.

Results

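The 9 genes described here are Vcam1, Icam1 and 7 integrin subunits (Itga4, Itga6, Itga9, Itgav, Itgb1, Itgb5 and Itgb8), out of 32285 genes in the files. They were picked by symbol, with no measured value in the rule, and all 9 were found. Single-cell RNA-seq (scRNA-seq) had been performed on the ventricular-subventricular zone (V-SVZ), the stem cell niche on the lateral wall of the lateral ventricle, of mice aged P31 to P33. Control mice were Prdm16 fl/fl without Cre (3 libraries), Prdm16 cKO mice were hGFAP-Cre+/-; Prdm16 fl/fl (3 libraries), and Prdm16-Vcam1 DKO mice had the cKO genotype with Vcam1 fl/fl added (1 library). Every mouse carried floxed Prdm16, only the DKO mice carried floxed Vcam1, and no group lacked Vcam1 alone. Each library pooled 2 to 3 mice of both sexes, so a value is a mean over animals. The hGFAP promoter drives Cre in embryonic radial glia and in astrocytes, so endothelial cells, mural cells and microglia lie outside the Cre lineage.

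Vcam1 and Icam1 are cell-surface proteins of the immunoglobulin family. Each is held by an integrin on a neighbouring cell: Vcam1 mainly by integrin α4β1, and also by α9β1, and Icam1 by the leukocyte β2 integrins. Integrins are pairs of an α and a β chain. α6β1 is a laminin receptor, αvβ5 binds vitronectin, and αvβ8 releases active TGF-β from its latent form. In the adult V-SVZ, NSCs touch the ventricle with an apical ending that carries Vcam1 protein, and they touch blood vessels with a basal process whose α6β1 integrin binds vascular laminin. In vessels, Vcam1 and Icam1 are known as endothelial ligands for leukocytes.

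The genes lie on 6 chromosomes (GRCm38, GENCODE annotation), and each value sums the 3′ reads that were assigned to the whole gene. Vcam1 is on the minus strand at chr3:116109949-116129688. Icam1 is on the plus strand at chr9:21015985-21028817, and Itga9 is on the plus strand of the same chromosome at chr9:118606690-118901003. Itga6 (chr2:71745616-71858416), Itga4 (chr2:79255426-79333123) and Itgav (chr2:83724397-83806916) are all on the plus strand of chromosome 2. Itgb5 (chr16:33829665-33949338) and Itgb1 (chr8:128685654-128733200) are on the plus strand, and Itgb8 (chr12:119158022-119238802) is on the minus strand.

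After filtering, 43346 of 65049 barcodes remained, with a median of 4959.5 to 8317.5 UMIs (unique molecular identifiers, counts of single RNA molecules) per cell in a library. The filter kept 49.8% of the barcodes of cKO library 2 and 47.2% of those of cKO library 3, against 70.2% to 74.7% in the other 5. In every library 11 cell types had at least 10 cells, and these were compared. They were named from markers in clusters built without the 9 genes. The types were NSC-, astrocyte-, ependymal-, transit amplifying precursor (TAP)-, neuroblast-, neuron-, OPC (oligodendrocyte precursor)-, oligodendrocyte-, endothelial-, mural- and microglia-like cells. Erythrocyte-like cells (250 in all) were also named but not compared. Levels are CPM (a gene's UMIs scaled to a common library total) of the summed counts of 1 type in 1 library, scaled by TMM. Of the kept cells, 731 carried a barcode that another library also held. Without them, member levels that rested on at least 100 UMIs moved by at most 7.55%. In NSC-like cells Prm1, a protamine gene, was at 0, 0.207 and 0 CPM in the control libraries, at 152, 326 and 464 CPM in the cKO libraries and in DKO at 168 CPM; the source of these reads was not tested. Prdm16 itself was at 67.4, 60.5 and 69.7 CPM in control, 54.6, 51.7 and 49.0 CPM in cKO and 56.9 CPM in DKO NSC-like cells (cKO vs control log2 fold change -0.35, SE 0.14, adjusted p = 0.3 in edgeR's quasi-likelihood test). In astrocyte-like cells Prdm16 was not lower in cKO, at 50.6, 45.1 and 47.9 CPM in control and 48.7, 60.0 and 52.6 CPM in cKO (0.16, SE 0.17, adjusted p = 0.817). Reads at the 3′ end can remain after upstream exons are deleted, so the Prdm16 and Vcam1 counts do not measure the deletion; whether they remain was not tested.

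Among the 11 types, Vcam1 was most abundant in astrocyte-like cells, and second in NSC-like cells. Astrocyte-like cells held 338 ± 74.5 CPM (SD, n = 7 libraries), NSC-like cells 142 ± 36.0 CPM and endothelial-like cells 90.3 ± 70.1 CPM. Astrocyte-like cells exceeded NSC-like cells in 7 of 7 libraries, by 1.99 to 3.09 times. NSC-like cells exceeded endothelial-like cells in 6 of 7, the exception being cKO library 2. OPC-like (33.3 ± 9.34), ependymal-like (24.1 ± 9.54), microglia-like (20.2 ± 15.4) and TAP-like cells (16.9 ± 8.08 CPM) followed, and over all 7 libraries the ranges of these neighbours overlapped. Their order differed between the groups: OPC-like cells were above ependymal-like cells in 3 of 3 control libraries, below them in 3 of 3 cKO libraries and above them in the DKO library, and above TAP-like cells in 3 of 3 control libraries. Mural-, neuron-, oligodendrocyte- and neuroblast-like cells held between 2.94 and 7.59 CPM on average.

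Along the neurogenic lineage, in which NSCs produce dividing TAPs and TAPs produce neuroblasts, Vcam1 was lower at each step in every library. The NSC-like level was 5.70 to 11.5 times the TAP-like level, and the TAP-like level was 3.01 to 11.02 times the neuroblast-like level. Itgb8 was also lower at each step, by 3.11 to 4.72 times and then by 1.23 to 2.05 times. Itgb5 was 8.42 to 24.1 times lower in TAP-like than in NSC-like cells, Itga6 3.27 to 11.3 times lower and Itgav 2.41 to 3.53 times lower. Itgb1 went the other way at the first step: TAP-like cells held 1.29 to 1.70 times the NSC-like level in 7 of 7 libraries. Ependymal cells, which share the ventricular surface with NSCs, held 4.57 to 7.86 times less Vcam1 than NSC-like cells.

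**Figure D1:**
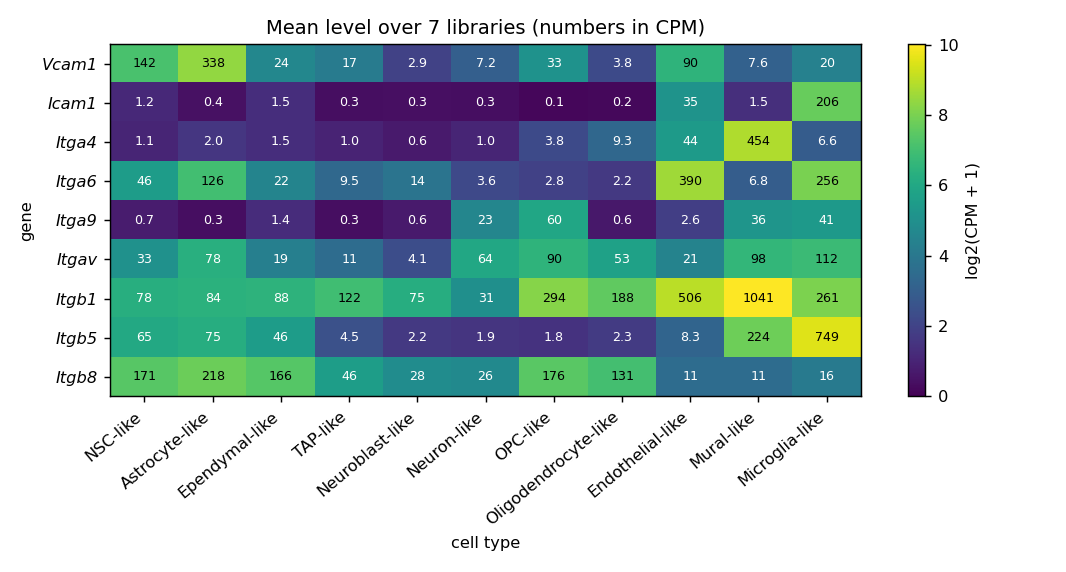
Mean level of the 9 genes (rows) in 11 cell types (columns) over 7 libraries; colours are log2(CPM + 1) and the printed numbers are CPM. Vcam1 stood highest in astrocyte-like cells (338 CPM), Itga4 and Itgb1 in mural-like cells (454 and 1041 CPM), Itga6 in endothelial-like cells (390 CPM) and Icam1 and Itgb5 in microglia-like cells (206 and 749 CPM).

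The share of cells with at least 1 Vcam1 UMI was read after thinning every cell to 2000 UMIs, because detection rises with depth. The share was 46.1% ± 9.97 in astrocyte-like cells and 25.7% ± 4.78 in NSC-like cells (SD, n = 7). Without thinning these were 80.9% ± 15.0 and 62.0% ± 12.5. Oligodendrocyte-like cells, which should lack the gene and had a median of 17966 UMIs against 7389 in NSC-like cells, gave 0.999% ± 0.335 after thinning. Neuroblast-like cells gave 0.554% ± 0.246, neuron-like cells 0.886% ± 0.535 and TAP-like cells 3.13% ± 2.01. Thinning left out 106 of 5554 NSC-like, 82 of 2319 astrocyte-like and 1231 of 2775 ependymal-like cells as too shallow.

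Among the 11 types, Icam1 transcripts were found mainly in microglia-like and endothelial-like cells. Microglia-like cells held 206 ± 35.4 CPM (range 135 to 239.5) and endothelial-like cells 35.0 ± 13.98 CPM (range 18.3 to 52.0), and these ranges did not overlap. The other 9 types averaged at most 1.55 CPM. After thinning, 23.6% ± 6.61 of microglia-like and 5.21% ± 2.21 of endothelial-like cells had an Icam1 UMI, against 0.0299% ± 0.0519 of oligodendrocyte-like cells. In NSC-like cells, 60 Icam1 UMIs were counted in all 7 libraries together.

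Itga4, the α chain of the main Vcam1 receptor, was a mural-like gene in this tissue. Mural cells are the pericytes and smooth muscle cells that wrap blood vessels. Itga4 was at 454 ± 109 CPM in mural-like cells (range 324 to 668) and at 43.7 ± 16.1 CPM in endothelial-like cells (range 29.4 to 78.0). All other types averaged at most 9.31 CPM, and NSC-like cells held 55 Itga4 UMIs over all libraries. After thinning, 52.9% ± 5.57 of mural-like cells had an Itga4 UMI, and 43.2% ± 6.16 had both Itga4 and Itgb1 UMIs, the pair that makes α4β1 (the product of the 2 shares was 42.9%). In endothelial-like cells the share with both was 4.43% ± 1.62, and it was below 1% in each of the remaining 9 types.

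Itga9, the α chain of α9β1, was highest in OPC-like cells at 60.2 ± 18.7 CPM. Microglia-like (41.2 ± 10.3 CPM) and mural-like cells (36.3 ± 14.4 CPM) overlapped with OPC-like cells, and neuron-like cells held 23.3 ± 10.9 CPM. All other types averaged at most 2.62 CPM, and NSC-like cells held 32 Itga9 UMIs in all. NSC- and astrocyte-like cells, the types with the most Vcam1, thus held little Itga4 (1.07 and 2.03 CPM) and Itga9 (0.69 and 0.29 CPM). OPC-like cells had Itga9 and Itgb1 UMIs together in 5.12% ± 2.34 of thinned cells.

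Itga6, a laminin receptor chain, was led by endothelial-like cells (390 ± 63.0 CPM), then microglia-like (256 ± 54.3 CPM), astrocyte-like (126 ± 27.7 CPM) and NSC-like cells (45.6 ± 27.6 CPM). The astrocyte-like level exceeded the NSC-like level in 7 of 7 libraries, by 1.80 to 4.81 times. Itga6 and Itgb1, the α6β1 pair, were seen together in 32.5% ± 5.24 of thinned endothelial-like and 18.3% ± 3.23 of microglia-like cells, but in 1.46% ± 0.826 of NSC-like cells. The NSC-like level varied widely between libraries, from 26.8 to 87.9 CPM, which is described with the cKO comparison. Itgav, the αv chain, was spread more evenly: microglia-like (112 ± 17.9 CPM), mural-like (98.0 ± 11.8 CPM), OPC-like (89.6 ± 8.31 CPM) and astrocyte-like cells (78.4 ± 9.88 CPM) overlapped with their neighbours in rank. NSC-like cells held 32.6 ± 2.25 CPM of Itgav in control libraries (n = 3), and TAP- and neuroblast-like cells held less.

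Itgb1, the β chain shared by α4β1, α6β1 and α9β1, was found in every type. Mural-like cells held 1041 ± 170 CPM, endothelial-like cells 506 ± 120.5 CPM, OPC-like cells 294 ± 42.1 CPM and microglia-like cells 261 ± 44.3 CPM. The lowest level was that of neuron-like cells, 30.6 ± 11.01 CPM. Itgb5, the partner of αv in the vitronectin receptor, was highest in microglia-like (749 ± 72.5 CPM) and mural-like cells (224 ± 28.4 CPM), followed by astrocyte-like (75.2 ± 13.4 CPM), NSC-like (65.5 ± 12.3 CPM) and ependymal-like cells (45.9 ± 3.87 CPM). Itgb8, the partner of αv in the TGF-β activating integrin, had another pattern. It was at 218 ± 43.1 CPM in astrocyte-like, 176 ± 21.0 CPM in OPC-like, 171 ± 53.7 CPM in NSC-like and 166 ± 19.4 CPM in ependymal-like cells, neighbours whose ranges over libraries overlapped, and at 131 ± 19.2 CPM in oligodendrocyte-like cells. Within a library, astrocyte-like cells exceeded NSC-like cells in 7 of 7, by 1.015 to 1.71 times. Itgb8 averaged between 10.7 and 15.9 CPM in the vascular types and in microglia-like cells. After thinning, Itgav and Itgb8 were seen together in 8.92% ± 2.36 of OPC-like and 4.48% ± 1.16 of astrocyte-like cells, and Itgav and Itgb5 in 15.1% ± 3.54 of microglia-like cells.

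The genes whose pattern over the 11 types in control libraries was most like that of each gene were found by Pearson's r of log2(CPM + 1) among 11717 genes. These values are descriptions: the 11 points share libraries and differ in depth. Vcam1 was most like Ddah1 (r = 0.952), Tmem198b (0.932) and S1pr1 (0.927), and Icam1 was most like Slco2b1 (0.979), Hhex (0.971) and Gmfg (0.971). S1pr1 was also a marker used to name astrocyte-like cells, so its r is not independent of the naming. Itga4 was most like Nid1 (r = 0.963), Vtn (0.963) and Lamc1 (0.958). Itga6 was most like Cd38 (0.916), Rabep2 (0.890) and Igtp (0.877), and Itga9 was most like Clptm1l (0.924), Sharpin (0.894) and Atmin (0.880). Itgav was most like Atf6b (0.928), P4ha1 (0.910) and Ufl1 (0.907), Itgb1 was most like Atg4a (0.942), Rock1 (0.916) and Lims1 (0.913), Itgb5 was most like Gem (0.946), Icosl (0.943) and Apobec1 (0.938), and Itgb8 was most like Sqle (0.953), Me1 (0.944) and Pex13 (0.938).

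Vcam1 was distributed over cells in different ways in glia and in vessels. In NSC-like cells the 5% of cells with the most Vcam1 UMIs held 18.1% to 26.1% of the UMIs of a library, and in astrocyte-like cells 14.6% to 25.5%. In endothelial-like cells they held 69.2% to 93.9%, with up to 43 UMIs in 1 cell. Across the 7 libraries, 121 endothelial-like cells had at least 3 Vcam1 UMIs (8 to 40 per library) and 2478 had 0; this split was chosen after the values were seen, and no test was made of it. The cells with Vcam1 were deeper, with a median of 12594 against 3959.5 UMIs.

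In the endothelial-like cells with Vcam1, some transcripts known from arteries and from larger vessels and veins were more abundant. Gkn3, an arterial gene, was at 1310.1 ± 754 CPM with Vcam1 and 85.3 ± 40.0 CPM without (SD, n = 7), Bmx, also arterial, at 124 ± 75.7 against 29.6 ± 7.78 CPM, and Vwf, a gene of larger vessels and veins, at 526 ± 162 against 144 ± 37.9 CPM. Each was higher with Vcam1 in 7 of 7 libraries, as were Sema3g, Nr2f2 and Slc38a5. Efnb2, another arterial gene, was close (75.8 ± 34.4 against 62.4 ± 11.4 CPM, higher in 6 of 7), and Vcan was at 5.45 ± 5.55 against 10.4 ± 8.27 CPM, higher in 3 of 7. Mfsd2a, a lipid transporter of capillary endothelium, was lower in 7 of 7, at 245 ± 87.6 against 452 ± 102 CPM. Icam1 was higher in 7 of 7, at 109.6 ± 57.1 against 21.4 ± 7.91 CPM. Itga4 was lower in 7 of 7, at 17.6 ± 9.49 against 48.3 ± 14.9 CPM. Itga6 was at 322 ± 90.7 against 402 ± 76.1 CPM, higher in 1 of 7. Itgb1 was at 551 ± 96.8 against 488 ± 108 CPM, higher in 5 of 7. The selectin genes Sele and Selp, which inflamed endothelium also displays, were at or below 0.61 CPM in every endothelial-like library.

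Among mural-like cells, Itga4 and Itgav were higher in pericytes and Itgb1 in smooth muscle cells. Cells with at least 2 more pericyte markers (Kcnj8, Higd1b, Abcc9) than smooth muscle markers (Acta2, Tagln, Myh11) numbered 776, and those with the opposite balance 144, of which 1 library held only 7; the split was made after the values were seen. Itga4 was at 591 ± 126 CPM on the pericyte side (range 420.5 to 816) and 178 ± 46.4 CPM on the smooth muscle side (range 101 to 229), with no overlap. Itgav was at 122 ± 17.5 CPM (range 97.8 to 139) against 51.1 ± 22.1 CPM (range 8.50 to 75.9). Itgb1 was the reverse, at 868 ± 161 CPM against 1356 ± 207 CPM, higher on the smooth muscle side in 7 of 7 libraries although the ranges over libraries overlapped. Itgb5 (233 ± 28.5 against 202 ± 80.3 CPM) and Itga9 (35.1 ± 16.2 against 38.8 ± 15.9 CPM) overlapped between the sides, and so did the 4 genes that were low in mural-like cells.

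**Figure D2:**
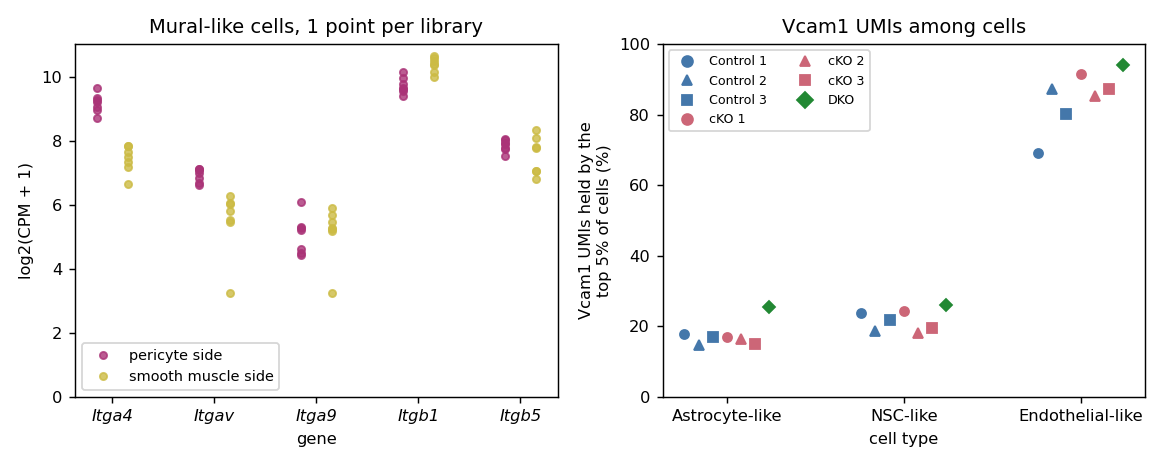
Left, level of 5 integrin genes in mural-like cells of the pericyte and the smooth muscle side, as log2(CPM + 1), 1 point per library; the Itga4 points of the pericyte side (420.5 to 816 CPM) all lie above those of the smooth muscle side (101 to 229 CPM). Right, percent of Vcam1 UMIs held by the 5% of cells with the most of them in each library and type, which was 69.2% to 93.9% in endothelial-like cells and 14.6% to 26.1% in the glial types.

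Other groups of cells also carried these genes, and their values are pooled over libraries. Groups called by markers alone, or clustered without integration, can share cells with the 11 types. Fibroblast-like cells, named as a cluster without integration (127 cells, 6 to 34 per library), held Vcam1 at 267 CPM, and at 173 to 323 CPM in single libraries, above the NSC-like mean. Their Icam1 was at 68.1 CPM, but 47 of its 77 UMIs came from the 10 cells of cKO library 2, and without that library it was at 30.5 CPM. With integration, the cluster with the most fibroblast markers came mostly from control library 2 and stayed unnamed. Cells called T cells by their markers (38 cells) held Itga4 at 190 CPM, with a UMI in 42.1% of cells, and no Vcam1 UMI. The 7 cells with border macrophage markers held 46 Vcam1 UMIs (899.9 CPM), with a UMI in only 42.9% of them. A cluster led by DNA replication genes such as Mcm2 and Mcm3 (1719 cells) held Vcam1 at 15.9 CPM and Itgb1 at 136 CPM.

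The comparison of cKO with control asked whether these transcripts differ when Prdm16 is deleted in radial glia. The cKO mice carried hGFAP-Cre and the controls did not, so effects of Cre and of Prdm16 loss cannot be told apart. The same holds for DKO vs control. No member was called in any type: 0 of 81 testable gene and type pairs had an adjusted p under 0.05 in edgeR's quasi-likelihood test (Benjamini-Hochberg over all genes of a type), where 0.16% of all gene and type pairs were called, and 0.152% of genes in NSC-like cells. DESeq2 called 2 of them, and 0.754% of all pairs. At an unadjusted p under 0.05 stood 11 of the 81 pairs, 7 higher and 4 lower, beside 6.22% of all pairs. The remaining 18 of 99 pairs did not pass the filter on low counts, mostly Icam1, Itga9 and Itga4, so the 81 are not all pairs. All cKO libraries lay above all control libraries in 10 of the 81 pairs, where 5.75% of all pairs did, and below in 5, where 5.82% did.

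In NSC-like cells Vcam1 was at 142, 126 and 111 CPM in the control libraries, at 151, 186 and 187 CPM in the cKO libraries and at 91.3 CPM in the DKO library. All cKO libraries lay above all control libraries, and the DKO library was the lowest of the 7. The cKO vs control log2 fold change was 0.46 (SE 0.16, unadjusted p = 0.0146, adjusted p = 0.226 in edgeR), and a two-sided exact permutation test of the 3 against 3 CPM values gave p = 0.1, the smallest this design allows. The difference thus did not pass the threshold. Without cKO library 1 it did, with a log2 fold change of 0.56 and an adjusted p of 0.0442, and over all single libraries left out the adjusted p ran from 0.0442 to 0.675. With NSC-like cells gated by markers in place of clusters the log2 fold change was 0.21 (adjusted p = 0.81).

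Itgb8, Itga6 and Itgb5 also separated the cKO from the control libraries in NSC-like cells, and none passed the adjusted threshold. With Vcam1 they made 4 of 8 tested members at an unadjusted p under 0.05, where 13.7% of NSC-like genes were; all cKO libraries lay above all control libraries for 9.9% of NSC-like genes and below for 8.14%. Itgb8 was at 137, 115 and 146 CPM in control, 166, 266 and 223 CPM in cKO and 144 CPM in DKO (cKO vs control log2 fold change 0.72, SE 0.19, adjusted p = 0.119 in edgeR). Itga6 was at 27.6, 27.6 and 26.8 CPM in control, 33.8, 87.9 and 83.6 CPM in cKO and 31.9 CPM in DKO (1.31, SE 0.33, adjusted p = 0.132). The Itga6 values of cKO libraries 2 and 3 stood far above the other 5, which lay between 26.8 and 33.8 CPM. Itgb5 was at 80.5, 81.6 and 67.5 CPM in control, 65.0, 52.1 and 50.5 CPM in cKO and 61.0 CPM in DKO (-0.45, SE 0.16, adjusted p = 0.23). Without cKO library 1 all 3 passed, with adjusted p of 0.00328 for Itgb8, 2.39e-06 for Itga6 and 0.0363 for Itgb5. With another library left out the adjusted p was at most 0.48 for Itgb8, 0.427 for Itga6 and 0.677 for Itgb5. DESeq2 gave an adjusted p of 0.0175 for Itgb8, 0.000613 for Itga6 and 0.296 for Itgb5. With NSC-like cells gated by markers the log2 fold change was 0.32 for Itgb8 (adjusted p = 0.74), 0.63 for Itga6 (adjusted p = 0.714) and -0.61 for Itgb5 (adjusted p = 0.676). Itgb1 (61.5 to 95.3 CPM) and Itgav (30.2 to 34.6 CPM) overlapped between the groups, and Icam1, Itga4 and Itga9 stayed at or below 2.49 CPM.

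Of 15 marker lists of other cell types, 2 summed higher and 2 lower in all cKO than in all control libraries in NSC-like cells. The summed level of 8 astrocyte markers in NSC-like cells was 1512 to 1630.3 CPM in control, 1752, 2306 and 2564 CPM in cKO and 1719.8 CPM in DKO, and none of the 8 was at 0. The 8 ependymal markers summed to 105 to 159 CPM in control and to 169, 356 and 371 CPM in cKO and 214 CPM in DKO. In the DKO library both sums also lay above all controls. The 8 TAP markers summed to 39.0 to 48.6 CPM in control, 33.3, 13.02 and 21.6 CPM in cKO and 38.1 CPM in DKO, and the 8 microglia markers to 46.6 to 63.2 CPM in control and 43.3 to 46.3 CPM in cKO. The astrocyte and ependymal sums were highest, and the TAP sum lowest, in cKO libraries 2 and 3, the libraries that kept the smallest share of their barcodes, and the part of these 4 lists in the result was not tested. With NSC-like and astrocyte-like cells summed together, the cKO vs control log2 fold change was 0.32 for Vcam1, 0.59 for Itgb8, 0.81 for Itga6 and -0.42 for Itgb5, and none was called (adjusted p from 0.196 to 0.381 in edgeR). The NSC-like differences were also read within the libraries of the same Cell Ranger version, on the log2(CPM + 1) scale. Vcam1 differed by 0.32 and 0.74, Itgb8 by 0.74 and 0.61, Itga6 by 0.96 and 1.61 and Itgb5 by -0.47 and -0.41. The second value of each rests on 1 library a group. Because cKO and control did not overlap for these genes, the signs could not change, so they say nothing about the version.

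**Figure D3:**
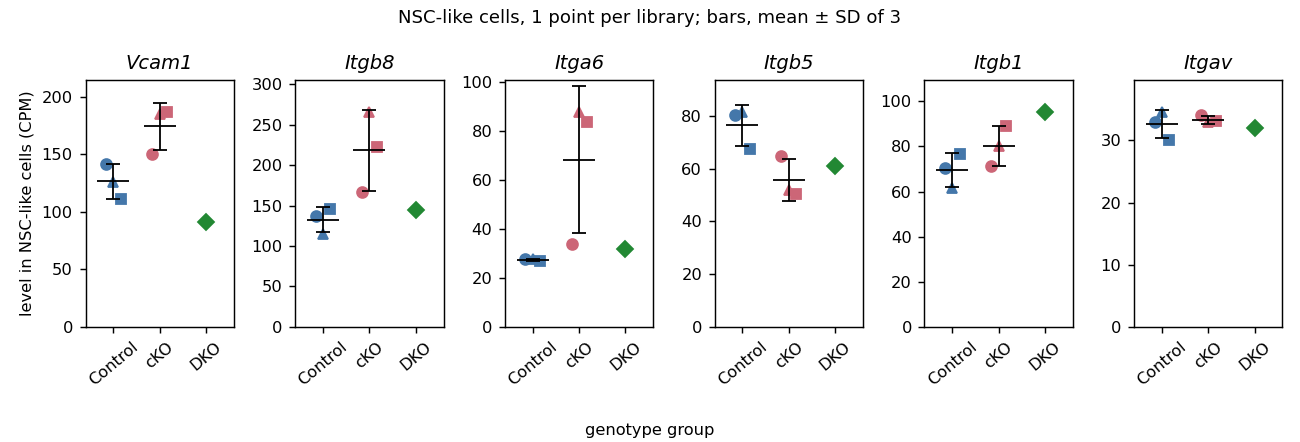
Level of 6 of the genes in NSC-like cells in CPM, with 1 point per library and the mean ± SD of the 3 control and the 3 cKO libraries; the DKO group is 1 library. Vcam1 in cKO (151 to 187 CPM) lies above control (111 to 142 CPM) and DKO (91.3 CPM) below both, while Itgav is nearly flat at 30.2 to 34.6 CPM.

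Outside NSC-like cells, Vcam1 in cKO was above control in TAP-like and ependymal-like cells and below control in OPC-like cells. In TAP-like cells it was at 13.7, 13.6 and 12.4 CPM in control, 16.6, 21.0 and 32.8 CPM in cKO and 7.94 CPM in DKO (cKO vs control log2 fold change 0.82, SE 0.23, adjusted p = 0.713 in edgeR). Without cKO library 1 the TAP-like adjusted p was 0.0397. The marker lists of other types were not summed in TAP-like cells, so whether they differed there is not known. In ependymal-like cells Vcam1 was at 18.6, 16.1 and 22.1 CPM in control, 26.9, 30.5 and 40.9 CPM in cKO and 13.4 CPM in DKO (0.75, SE 0.21, adjusted p = 0.229). In ependymal-like cells 5 of 15 marker lists of other types separated cKO from control. Summed over 8 markers each, mural markers were at 366 to 619 CPM in control and 676 to 939 CPM in cKO. The 4 that were lower in cKO were TAP (47.2 to 63.5 against 8.55 to 34.7 CPM), neuroblast (822 to 961 against 642 to 773 CPM), oligodendrocyte (396.5 to 582 against 182 to 352 CPM) and fibroblast markers (158 to 208 against 96.5 to 125 CPM). Choroid plexus markers overlapped, at 582 to 2369 CPM in control, 203 to 684 CPM in cKO and 3453 CPM in DKO, and the part of these lists in the result was not tested. In OPC-like cells it was at 37.1, 40.2 and 44.1 CPM in control, 26.3, 16.3 and 35.4 CPM in cKO and 33.3 CPM in DKO (-0.57, SE 0.22, adjusted p = 0.961). The 8 neuron markers in OPC-like cells summed to 419 to 439 CPM in control, 229, 189 and 369 CPM in cKO and 326 CPM in DKO, lowest in cKO library 2 as Vcam1 was. The microglia markers, the other of 15 lists that separated the groups there, summed to 31.1 to 48.5 CPM in control and 20.1 to 29.7 CPM in cKO, and the part of both lists in the result was not tested. Oligodendrocyte markers in OPC-like cells overlapped between the groups. They summed to 3581 to 4379 CPM in control and 2984 to 3948 CPM in cKO, beside OPC markers at 3308 to 4121 CPM. Astrocyte-like Vcam1 overlapped between control (384, 300.4 and 345 CPM) and cKO (401, 375 and 372 CPM). Itga6 in ependymal-like cells was at 19.1, 17.1 and 15.7 CPM in control and 21.9, 25.7 and 38.6 CPM in cKO (0.75, SE 0.23, adjusted p = 0.298), and Itgav in neuron-like cells at 63.6, 44.6 and 45.9 CPM in control and 71.8, 102 and 65.4 CPM in cKO (0.63, SE 0.24, adjusted p = 0.999).

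Endothelial-like Vcam1 varied more between libraries than between groups. It was at 98.3, 52.2 and 83.2 CPM in control, 50.6, 241 and 73.8 CPM in cKO and 32.9 CPM in DKO, with cKO library 2 far above the rest on 165 cells. The NSC-like effect of cKO was therefore compared with the endothelial-like effect, as a type outside the Cre lineage, in a model with the library as a block. The effects differed by 0.13 on the log2 scale (SE 0.63, adjusted p = 0.983 in edgeR), where 0.151% of genes were called; the difference was 0.77 without cKO library 2 (adjusted p = 0.316), and its sign turned without control library 3 (-0.04), cKO library 1 (-0.18) or cKO library 3 (-0.20) and with the marker gate (-0.21). For DKO vs control the difference was 0.79 (SE 0.91, adjusted p = 0.997), where 0.0% of genes were called (0 in edgeR). Neither test showed a Vcam1 effect that differed between NSC-like and endothelial-like cells. Both SEs (0.63 and 0.91) were larger than the NSC-like effects themselves (0.46 in cKO and -0.47 in DKO, vs control). The tests therefore could not resolve differences of that size and do not show that the effects were alike.

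**Figure D4:**
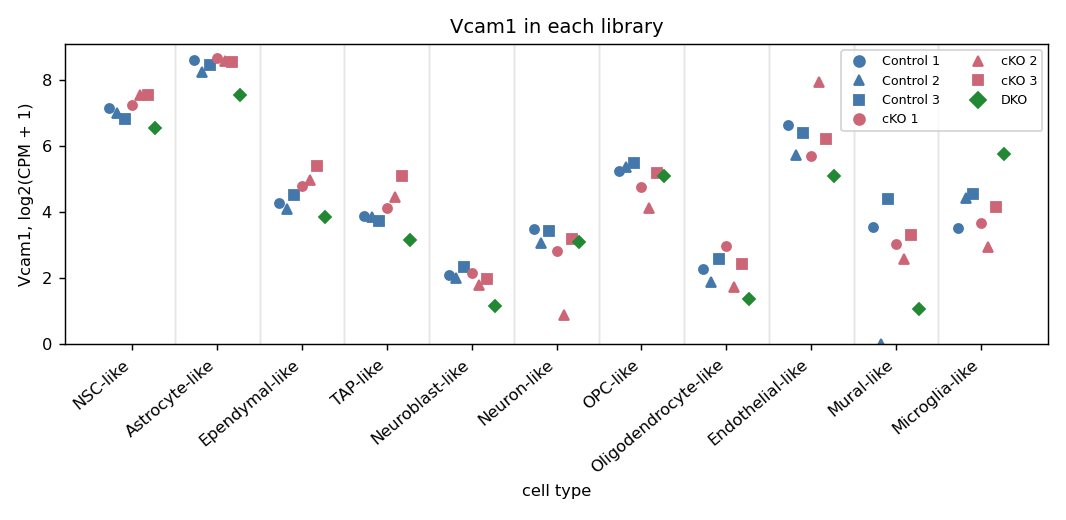
Vcam1 in each of 7 libraries and 11 cell types, as log2(CPM + 1). The DKO library lies below the control and cKO libraries in NSC-, astrocyte-, ependymal-, TAP-, neuroblast-, oligodendrocyte- and endothelial-like cells and above them in microglia-like cells, and cKO library 2 stands apart in endothelial-like cells (241 CPM).

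The DKO library asked how the transcripts stand when Vcam1 is deleted beside Prdm16. With 1 DKO library, the tests assume that it varies like the other groups. No member was called in DKO vs control (0 of 81 pairs, where 0.0366% of all pairs and 0.0414% of genes in NSC-like cells were called) or in DKO vs cKO (0 of 81, where 0.0258% and 0.0276% were) by edgeR. At an unadjusted p under 0.05 stood 22 pairs in DKO vs control, beside 4.99% of all pairs, and 16 in DKO vs cKO, beside 4.08%. DESeq2 called 0 in DKO vs control (0.133% of all pairs) and 1 in DKO vs cKO (0.0695%). The DKO library was the lowest of the 7 in 20 of the 81 pairs, where 13% of all pairs were, and the highest in 15, where 13.2% were.

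Vcam1 was the lowest of the 7 libraries in the DKO library in 7 of 11 types. These were NSC-, TAP-, neuroblast-, astrocyte-, ependymal-, oligodendrocyte- and endothelial-like cells. Neuroblast- and oligodendrocyte-like cells held little Vcam1 in any library (means 2.94 and 3.82 CPM). Their DKO values rest on 15 and 25 UMIs. Vcam1 was the highest of the 7 in DKO in microglia-like cells. It lay within the range of the others in OPC-, neuron- and mural-like cells. Of 7945 genes testable in all 11 types, 1.49% were lowest in DKO in at least 7. In astrocyte-like cells Vcam1 was at 186 CPM in DKO, against 300.4 to 401 CPM in the other 6 (DKO vs cKO log2 fold change -1.04, SE 0.27, adjusted p = 0.569 in edgeR; DKO vs control -0.88, SE 0.26, adjusted p = 0.341). DESeq2 called the first of these (adjusted p = 0.021). In NSC-like cells the DKO vs cKO log2 fold change was -0.93 (SE 0.24, adjusted p = 0.818) and DKO vs control -0.47 (adjusted p = 0.92); without cKO library 1 the first passed, at -1.03 (adjusted p = 0.0327), and with NSC-like cells gated by markers they were -0.47 (adjusted p = 1) and -0.26 (adjusted p = 1). Endothelial-like cells, outside the Cre lineage, were also lowest in DKO. That value rests on 115 UMIs in 443 cells, with 93.9% of them in the top 5% of cells. The other libraries ran from 50.6 to 241 CPM there. The DKO library was lowest for 13.9% of endothelial-like, 12.9% of NSC-like and 12.3% of astrocyte-like genes. Of 15 marker lists of other types, the DKO library was the highest in 0 and the lowest in 0 in NSC-like cells, and the highest in 3 (NSC, neuroblast and choroid plexus markers) and the lowest in 0 in astrocyte-like cells; their part in the result was not tested. The thinned share of NSC-like cells with a Vcam1 UMI was 18.1% in DKO (157 of 869 cells, exact Clopper-Pearson 95% interval 15.6% to 20.8%, counting error only), against 20.3% to 30.8% in the other 6 libraries. In astrocyte-like cells it was 25.7% (86 of 334 cells, 21.1% to 30.8%), against 43.4% to 56.0%.

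Within the DKO library, Vcam1 was lower in cells with a Prm1 UMI than in those without, at 87.8 against 241 CPM in astrocyte-like cells (117 and 221 cells) and 61.9 against 113 CPM in NSC-like cells (349 and 523 cells), before TMM scaling. In the 3 cKO libraries the same pairs were 397 against 389, 368 against 424 and 357 against 374 CPM in astrocyte-like cells, and 180.4 against 134, 176 against 211 and 174 against 176 CPM in NSC-like cells, so they went both ways.

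In microglia-like cells Vcam1 was highest in DKO. The level was 52.9 CPM in DKO (40 UMIs), against 10.4, 20.6 and 22.2 CPM in control and 11.6, 6.77 and 16.9 CPM in cKO (DKO vs control log2 fold change 1.59, SE 0.47, adjusted p = 0.963 in edgeR). Of the 40 UMIs, 23 were in 1 cell, and 4.35% of the 138 DKO cells had any, a share within the 2.13% to 8.75% of the other libraries. The summed level of 8 border macrophage markers in microglia-like cells was also highest in DKO, at 1078 CPM against 346 to 816 CPM, and its part in the result was not tested. Icam1 in microglia-like cells was lowest in DKO, at 135 CPM against 192 to 239.5 CPM (DKO vs control -0.70, SE 0.26, adjusted p = 0.963).

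Itgb1 was the highest of the 7 libraries in DKO in 10 of 11 types, the exception being mural-like cells. Of the genes testable in all 11 types, 1.03% were highest in DKO in at least 10. In endothelial-like cells Itgb1 was at 485, 358 and 504 CPM in control, 442, 525 and 479 CPM in cKO and 750.1 CPM in DKO (DKO vs control log2 fold change 0.74, SE 0.26, adjusted p = 0.813 in edgeR). In oligodendrocyte-like cells it was at 286 CPM in DKO against 124 to 200.5 CPM in the others (0.84, SE 0.23, adjusted p = 0.884), and in neuron-like cells at 52.7 CPM against 17.6 to 33.8 CPM (1.10, SE 0.32, adjusted p = 1). These types lie both in and outside the Cre lineage, and every value rests on the same DKO library. In endothelial-like cells the DKO library was also lowest in summed mural markers (691 against 773 to 1283 CPM). It was highest there in summed erythrocyte markers (43844 against 15445 to 40277 CPM), and the part of both lists was not tested.

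**Figure D5:**
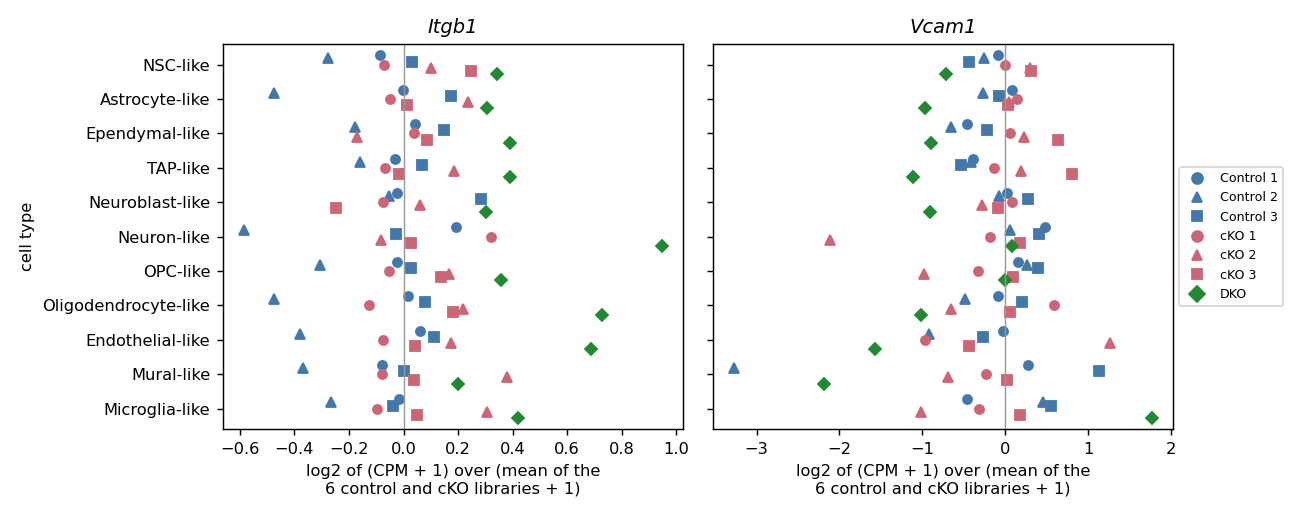
Itgb1 (left) and Vcam1 (right) in each library and type, as log2 of CPM + 1 over the mean of the 6 control and cKO libraries + 1; 0 marks that mean. The DKO points of Itgb1 lie to the right of all others in 10 of 11 types, and those of Vcam1 to the left of all others in 7 of 11.

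Itga4 was highest in DKO in both vascular types. In endothelial-like cells it was at 34.0, 29.4 and 41.5 CPM in control, 38.4, 37.4 and 47.0 CPM in cKO and 78.0 CPM in DKO (DKO vs control log2 fold change 1.13, SE 0.24, unadjusted p = 0.000355, adjusted p = 0.255 in edgeR). In mural-like cells it was at 462, 324 and 376 CPM in control, 410.4, 482 and 453 CPM in cKO and 668 CPM in DKO (0.78, SE 0.29, adjusted p = 0.937). On the pericyte side Itga4 was at 816 CPM in DKO, against 420.5 to 650 CPM in the others. On the smooth muscle side it was at 161.5 CPM in DKO, within the 101 to 229 CPM of the others. Mural-like cells of neither side held 346 CPM in DKO against 107 to 284 CPM. The part of the balance between the sides was not tested. Itga9 in OPC-like cells was lowest in DKO, at 31.9 CPM against 43.0 to 84.9 CPM (DKO vs control -1.08, SE 0.34, adjusted p = 0.678). In OPC-like cells the DKO library also stood apart in its sums of 8 TAP markers (525 CPM against 139 to 412 CPM). It did so too for 8 neuroblast (300.2 against 76.8 to 274 CPM) and 8 oligodendrocyte markers (2496 against 2984 to 4379 CPM). In endothelial-like cells it was highest in summed erythrocyte markers (43844 against 15445 to 40277 CPM). It was lowest there in mural markers (691 against 773 to 1283 CPM). In mural-like cells it was highest in oligodendrocyte (435 against 134 to 433 CPM) and endothelial markers (377 against 232 to 343 CPM). The same held there for choroid plexus markers (17.9 against 2.68 to 12.4 CPM). The part of these lists was not tested.

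The wider pathway was read through 96 further genes: 19 other integrin subunits, 26 ligands, 27 adaptors and effectors at the integrin tail, 12 other adhesion genes and 12 genes of Vcam1 regulation. Of 693 gene and type pairs tested, 1 was called higher and 0 lower in cKO vs control, and 0 in either direction in DKO vs control and in DKO vs cKO by edgeR (65, 39 and 34 at an unadjusted p under 0.05). Over all genes, 0.16% of pairs were called in cKO vs control, and 6.22%, 4.99% and 4.08% stood at an unadjusted p under 0.05. In cKO vs control the pairs at an unadjusted p under 0.05 were 32 of 175 for the ligands, 14 of 261 for the adaptors and effectors, 7 of 117 for Vcam1 regulation, and 6 of 67 and 6 of 73 for the other integrin subunits and adhesion genes. The median log2 fold change was 0.24 for the other integrin subunits, -0.18 for the other adhesion genes and between -0.02 and 0.01 for the remaining 3 lists, beside -0.00039 over all genes. The called pair was Tgfb2, a TGF-β ligand, in neuroblast-like cells. It was at 5.60, 7.26 and 6.63 CPM in control, 17.2, 27.2 and 31.6 CPM in cKO and 8.76 CPM in DKO (cKO vs control log2 fold change 1.96, SE 0.26, adjusted p = 0.00244). It was not called with neuroblast-like cells from clusters at resolution 0.3 (1.51, adjusted p = 0.156) or from the marker gate (1.72, adjusted p = 0.488).

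Levels of some of these partners, chosen after their values were seen, place the 9 genes among their ligands. Vtn, which encodes vitronectin, was at 13172 ± 3022 CPM in mural-like cells (SD, n = 7), the type second in Itgb5. Fn1, fibronectin, was at 953 ± 162 CPM in endothelial-like cells, and the laminin chain Lamc1 at 919 ± 168 CPM in mural-like and 132 ± 7.47 CPM in endothelial-like cells. Tgfb1 was at 290.1 ± 45.0 CPM in microglia-like cells, where Itgb8 was low. Itga1, a collagen receptor chain, was at 1576 ± 225 CPM in mural-like and 424 ± 39.8 CPM in endothelial-like cells, and Itgb2, the β chain of the Icam1 receptors, was at 167 ± 17.8 CPM in microglia-like cells.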

How the data were processed

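Single cells of the V-SVZ had been sequenced with 10x Genomics 3′ v3.1 chemistry, 1 library per pool of 2 to 3 mice. The deposited matrices hold UMI counts per gene and cell, which the authors made with Cell Ranger (6.1.1 in the submitters' processing notes) on mm10; the file headers name 6.0.1 for control and cKO libraries 1 and 2 and 6.1.1 for the other 3. Total counts per library ran from 45758003 to 141353017.

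Cells with 500 to 7000 genes and at most 10% mitochondrial counts were kept. Seurat 5.3.0 integrated the libraries by CCA (30 principal components, 1964 variable genes, the 9 genes and their pathway lists left out) and clustered them at resolution 0.15. A cluster was named from at least 3 detected markers. It was not named if its leading genes held more markers of another type, or if it was shallow with no own marker among them. A cluster with a share over 0.5 of its cells from 1 library was not named either, a rule chosen after the data were seen. In all, 4 clusters stayed unnamed. Doublets were marked with Scrublet (2.41% of cells) and kept, and leaving them out was an alternative. Counts were summed per library and type and tested with edgeR 4.0.16 (quasi-likelihood, filterByExpr, TMM, robust) in 1 fit of 7 libraries and 3 groups per type, with Benjamini-Hochberg adjustment over all genes of the type and a threshold of 0.05. The NSC and endothelial effects were compared in 1 model with the library as a block. The steps were tested on simulated data. Alternatives were DESeq2 1.42.0, its size factors, no filter, blocks for replicate number and Cell Ranger version, other cell filters and cell type rules, and each library left out. The rule that picks the members uses symbols only, but the members, lists and tests were chosen with earlier results of these data known, so the choice is not independent of them. Genes were named where they are members, where a pathway gene was called, or for likeness to a member; splits of endothelial and mural cells were added after their values were seen.

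Same-numbered libraries deviated together for all 3 numbers in oligodendrocyte-like (correlations 0.292, 0.166 and 0.462) and endothelial-like cells (0.198, 0.119 and 0.376); nothing in the labels pairs them, and the check covers control and cKO libraries, not the DKO library. Libraries of a group differed by more than counting noise (chi-square per degree of freedom 8.52 to 38.7). Intervals cover counting error only, and p-values the spread between pooled libraries.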

Additional observations from a re-analysis of the deposited data

Results flagged for a closer look

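The cKO effect on Vcam1 pointed in opposite directions in OPC-like cells and in 3 other types of the neural lineage. It was 1.31 higher on the log2 scale in ependymal-like than in OPC-like cells (SE 0.24, adjusted p = 0.00702 in edgeR with the library as a block, where 0.416% of genes were called). It was 1.38 higher in TAP-like than in OPC-like cells (SE 0.23, adjusted p = 0.0348, where 0.073% were called) and 1.022 higher in NSC-like than in OPC-like cells (SE 0.22, adjusted p = 0.0436, where 1.35% were called). These pairs were picked because every cKO library lay above the controls in 1 type and below them in the other. The tests are thus not independent of that choice. All 3 also use the same OPC-like sums, so they are not independent of each other. The adjustment covers genes and not the pairs of types, and cells gated by markers were not tried here. With each library left out, the adjusted p ran from 0.00259 to 0.0406 for ependymal-like, from 0.00617 to 0.146 for TAP-like and from 0.0129 to 0.215 for NSC-like cells, each lowest without cKO library 1. In OPC-like cells the 8 neuron markers summed to 419 to 439 CPM in control and 189 to 369 CPM in cKO, and their part in these differences was not tested. Itga4 was picked in the same way in TAP-like against OPC-like cells and was not called (2.89, SE 0.77, adjusted p = 0.234).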

How the results depend on the processing

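The count of members called in cKO vs control was 0. It was 4 with no low-count filter (Itgb8 in NSC-like, Vcam1 in TAP-like, Vcam1 and Itga6 in ependymal-like cells), where 0.911% of all pairs were called, 2 with the replicate block (Itgb8 in NSC-like, Vcam1 in ependymal-like cells; 1.3% of all pairs) and 2 with DESeq2 (Itga6 and Itgb8 in NSC-like cells; 0.754%). With each library left out it was 0 to 5, the 5 being without cKO library 1, where 2.16% of all pairs were called. In DKO vs control it was 1 with no filter (Itga4 in endothelial-like cells; 0.319%), 3 with the replicate block (Itga4 in endothelial-like, Vcam1 in astrocyte- and microglia-like cells; 2.22%) and 0 to 0 with libraries left out. In DKO vs cKO it was 3 with no filter (Vcam1 in ependymal-, microglia- and TAP-like cells; 0.202%), 2 with the replicate block (Vcam1 in astrocyte- and microglia-like cells; 0.603%), 1 with DESeq2 (Vcam1 in astrocyte-like cells; 0.0695%) and 0 to 2 with libraries left out, the 2 (Vcam1 and Itga6 in NSC-like cells; 0.31%) again without cKO library 1. Same-numbered control and cKO libraries correlated above 0.1 in their deviations for all 3 numbers in 2 of 11 types (endothelial- and oligodendrocyte-like cells); numbers 1 and 3 did so in 11 of 11, number 2 ran from -0.0927 to 0.0921 in the other 9, and each library was closest to its own number in 6 of 11. The block sets the DKO library with the libraries numbered 1, a pairing that was not checked. The DKO file header names Cell Ranger 6.1.1, as for control and cKO libraries 3, while the libraries numbered 1 have 6.0.1. The DKO library shared 47 barcodes with control library 3 and 15 with control library 1. With cKO libraries 3 and 1 it shared 19 and 12. All DKO results under the block depend on this pairing. Under it Itga4 in endothelial-like cells (DKO vs control) was at 1.22 (adjusted p = 0.0191). Elsewhere, with the block, the adjusted p was 0.0432 for Itgb8 in NSC-like and 0.0445 for Vcam1 in ependymal-like cells (cKO vs control), and 0.0147 for Vcam1 in astrocyte-like and 0.0139 in microglia-like cells (DKO vs control). NSC-like Vcam1 ran from 0.38 to 0.56 in cKO vs control and from -1.03 to -0.86 in DKO vs cKO with each library left out; with the marker gate they were 0.21 and -0.47, and DKO vs control -0.26. The NSC-like minus endothelial-like Vcam1 effect of cKO was -0.21 with the marker gate, and ran from -0.20 to 0.77 with libraries left out; the cause was not tested. It reversed in 4 of 14 alternatives. The Vcam1 tests in NSC-like cells and against endothelial-like cells are left aside here. The other 48 tests of single genes were Tgfb2 and the member tests with an unadjusted p under 0.05 in edgeR's main fit. Of their 760 alternatives, 736 kept direction and side of the threshold, 22 passed it, 2 (both Tgfb2) no longer did and 0 reversed. No member test was called in the main fit, so for the members keeping the side meant staying uncalled. The choice by a small p also made reversals unlikely, so these counts do not measure robustness. The type with the highest level was kept for 7 to 9 of the 9 genes: Itgav was highest in mural-like cells at 5% mitochondrial counts, and Itgav and Itgb8 in OPC-like cells with the gate. Without integration no cluster was named NSC-like, so no value could be had there. Icam1, Itga4 and Itga9 were low outside their main types, and the part of depth in this was not tested.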

Other observations

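The clusters that stayed unnamed also held these transcripts, as values pooled over libraries. A cluster with both endothelial and mural markers (342 cells, median 13874 UMIs) held Itgb1 at 674 CPM and Itga4 at 178 CPM, with an Itga4 UMI in 82.5% of cells. A cluster led by Dcn and Col1a1 (1210 cells, 985 of them from control library 2) held Vcam1 at 128 CPM and Itgb1 at 264 CPM. A shallow cluster led by C4b and Gfap (3140 cells, median 1129 UMIs) held Vcam1 at 97.8 CPM, with a UMI in 12.1% of cells.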
